A study of Homo sapiens with 18 samples.

Results

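The unperturbed transcriptome of PGP1 cells was described from the 2 wild-type (WT) RNA-seq libraries, which are 2 of the 6 RNA-seq libraries and of the 18 samples of the study. PGP1 is an established human induced pluripotent stem cell (PSC) line, and it was the parental line in which the study disrupted PCGF6, a Polycomb group gene. The WT cells carried no engineered deletion and received no treatment, and they were grown on Matrigel in mTeSR1, a feeder-free medium that contains FGF2 and TGF-beta. The libraries were chosen by their labels, and all 57133 genes of the count table were kept. The counts summed to 15877396 in replicate 1 and 16351360 in replicate 2. Nothing in the sources says whether the libraries came from separate cultures, so the spread between them may be technical.

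Pluripotency is held in place by a small group of transcription factors, with POU5F1 (also known as OCT4), SOX2 and NANOG at its center, which activate one another and genes of the undifferentiated state. Genes that specify the germ layers are kept off in these cells, many of them by Polycomb complexes and by repressive chromatin, and they are switched on when the cells leave pluripotency. Human PSCs in FGF2 and TGF-beta resemble the epithelium of the embryo after implantation, which is called the primed state, in contrast to the naive state before implantation.

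Levels are given in TPM, a gene's count divided by its deposited length. It is scaled so that all genes of a library sum to the same total. Genes can be compared only as far as the deposited lengths match the transcripts present, which was not tested. These lengths were 20812 bases for PAX6 and 36714 bases for FOXP1, for example. Each value is the mean ± SD of the 2 libraries. A gene was counted as expressed at 1 TPM or more in both libraries, and as having no counts when both libraries held 0. Over both libraries, 1 count of a gene of 4239 bases, the median length of expressed genes, was worth 0.0318 TPM, and a count of 0 allowed a level of up to 0.0955 TPM (3 counts). These limits and all intervals given here cover counting error only.

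The label of the cells was checked against 4 markers, and all 4 were among the highly expressed genes. POU5F1, on the reverse strand of chromosome 6 (31164337 to 31180731, GRCh38), had 24295 and 25011 counts, or 2297 ± 13.9 TPM, and ranked 27 in both libraries. LIN28A, an RNA-binding protein that blocks the maturation of let-7 microRNAs (chromosome 1, 26410817 to 26429728), had 26953 and 29955 counts and 1915 ± 115 TPM. SOX2 (chromosome 3, 181711925 to 181714436) had 5321 and 5460 counts and 579 ± 2.17 TPM. NANOG (chromosome 12, 7787794 to 7799146) was the lowest of the 4, with 1941 and 2387 counts and 108 ± 14.2 TPM. By mean TPM the ranks of LIN28A, SOX2 and NANOG were 35, 195 and 1873. The order of the 4 markers was the same in both libraries.

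**Figure D1:**
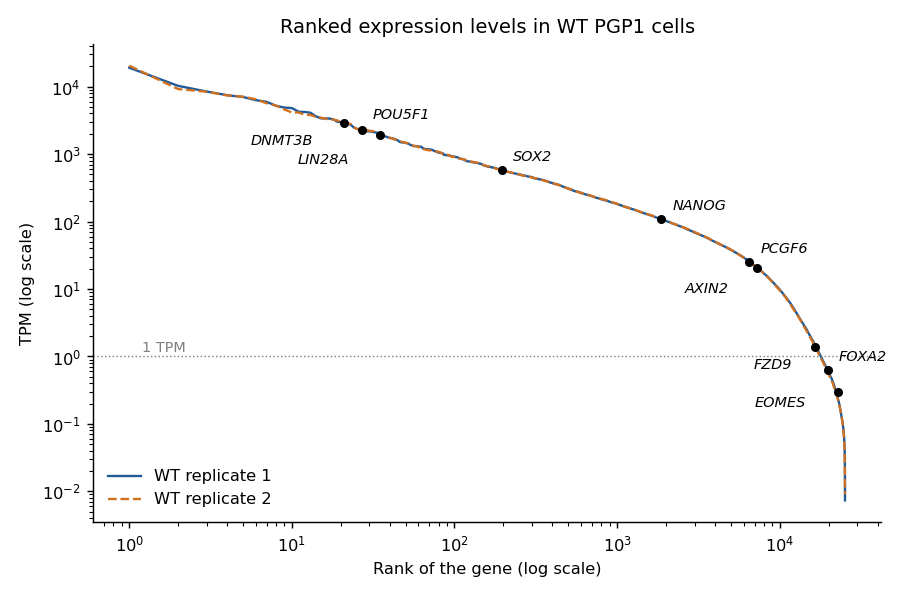
TPM of each gene (y axis, log scale) against its rank from the highest (x axis, log scale), with one line for each WT library; dots mark the mean TPM and rank of named genes and the dotted line is 1 TPM. The lines of the 2 libraries lie on each other, with POU5F1 at 2297 TPM, NANOG at 108 TPM, PCGF6 at 25.5 TPM and EOMES at 0.295 TPM.

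Copies of these genes took counts of their own. NANOGP8, a retrotransposed copy of NANOG, was listed at 147 ± 3.08 TPM (486 and 511 counts on 918 bases). This was above NANOG per length, while its counts were fewer, so their order depends on the deposited lengths. POU5F1P3, a processed pseudogene, was listed at 64.6 ± 1.54 TPM, and POU5F1B at 11.6 ± 1.10 TPM. Reads from near-identical copies cannot be told apart with certainty, so the levels of NANOG and of its copies are uncertain. POU5F1 also overlaps TCF19 (35.2 ± 0.676 TPM), and SOX2 lies within SOX2-OT (0.963 ± 0.203 TPM), a long non-coding RNA. These copies and neighbors were chosen after their values were seen.

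Sequences of 2 kinds are shown because the results refer to them. The first set consists of mature microRNAs of the miR-302 cluster, a microRNA cluster that is characteristic of human PSCs and promotes their rapid cell cycle. The capitals mark the seed, bases 2 to 8, which pairs with target transcripts (RefSeq, GRCh38.p14).
hsa-miR-302a-3p: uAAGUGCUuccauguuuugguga
hsa-miR-302b-3p: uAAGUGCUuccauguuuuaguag
hsa-miR-302c-3p: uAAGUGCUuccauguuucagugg
hsa-miR-302d-3p: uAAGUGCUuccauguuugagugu
hsa-miR-367-3p: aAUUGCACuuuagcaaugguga

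The 4 miR-302 members share the seed AAGUGCU, and the last, from the MIR367 hairpin, has another. Their hairpins lie within 1 stretch on the reverse strand of chromosome 4, from 112647874 (MIR367) to 112648557 (MIR302B). The hairpin of MIR367 had 30 counts in each library, and MIR302A had 11 and 11. MIR302B had 4 and 7 counts, MIR302C had 9 and 1, and MIR302D had 3 and 6. Together the 5 hairpins had 57 and 55 counts, and 1673 of 1848 annotated microRNA loci had no counts. Loci outside the cluster had as many counts or more. Over both libraries MIR621 ranked first with 190 counts, and MIR1244-2 shared rank 2 with MIR367 at 60 counts each. MIR302A ranked 10, MIR302B 23, MIR302C 25 and MIR302D 27, and 26 loci had 10 or more counts. Which molecules gave these counts was not tested, and they are not a measure of the mature microRNAs. These loci were also chosen after their values were seen.

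The second set shows the promoter windows of 2 expressed and 2 silent genes, from 250 bases before to 50 bases after the transcription start (RefSeq, GRCh38.p14). The capitals mark CpG dinucleotides, which cluster in the promoters of most broadly used genes. SOX2 lies at chr3:181711675-181711974 (forward strand) and NANOG at chr12:7789152-7789451 (forward strand). TBX20, a T-box factor of the heart, lies at chr7:35254051-35254350 (reverse strand) and IFNB1, which encodes interferon beta, at chr9:21077893-21078192 (reverse strand). These genes were chosen after their values were seen.
SOX2: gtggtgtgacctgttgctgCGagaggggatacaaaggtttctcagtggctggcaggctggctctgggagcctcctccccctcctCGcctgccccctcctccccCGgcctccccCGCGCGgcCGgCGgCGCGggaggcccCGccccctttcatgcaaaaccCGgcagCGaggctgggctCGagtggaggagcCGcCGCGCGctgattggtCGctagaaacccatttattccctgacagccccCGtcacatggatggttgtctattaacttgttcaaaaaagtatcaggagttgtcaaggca
NANOG: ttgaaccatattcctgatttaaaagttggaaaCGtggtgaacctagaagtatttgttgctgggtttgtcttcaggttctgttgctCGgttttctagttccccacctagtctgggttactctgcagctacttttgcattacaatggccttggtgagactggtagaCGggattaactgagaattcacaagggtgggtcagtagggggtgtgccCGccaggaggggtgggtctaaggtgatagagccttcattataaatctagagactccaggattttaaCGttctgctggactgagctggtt
TBX20: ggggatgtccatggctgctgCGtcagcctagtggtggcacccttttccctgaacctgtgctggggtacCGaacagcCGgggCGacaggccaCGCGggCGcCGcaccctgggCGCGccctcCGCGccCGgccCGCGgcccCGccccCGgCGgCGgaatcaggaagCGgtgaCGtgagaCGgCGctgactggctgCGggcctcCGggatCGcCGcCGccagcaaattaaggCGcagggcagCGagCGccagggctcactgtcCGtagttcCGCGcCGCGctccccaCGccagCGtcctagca
IFNB1: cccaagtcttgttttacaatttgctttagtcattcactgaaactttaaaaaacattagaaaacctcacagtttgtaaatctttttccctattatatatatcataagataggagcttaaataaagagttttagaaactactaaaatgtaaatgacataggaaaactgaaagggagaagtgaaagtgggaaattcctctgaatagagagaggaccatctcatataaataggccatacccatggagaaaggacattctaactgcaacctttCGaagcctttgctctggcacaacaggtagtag

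The window of SOX2 held 20 CpGs and that of NANOG held 5, and both genes were expressed. The window of TBX20 held 38 CpGs and that of IFNB1 held 1, and neither gene had a count in either library. The 4 genes were picked as 1 CpG-rich and 1 CpG-poor window of each kind, and shares over all genes are given further down. Those shares use windows at GENCODE starts, which can differ from the printed RefSeq windows, as they do for NANOG.

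Of the 57133 genes, 16526 (28.9%) were expressed, and 9635 reached 10 TPM, 1993 reached 100 TPM and 82 reached 1000 TPM in both libraries. Among 19264 genes matched to a protein-coding gene, 12980 (67.4%) were expressed, with a median of 22.9 TPM and quartiles of 7.58 and 60.2 TPM. Transcripts were unevenly shared among genes: 789 genes in replicate 1 and 793 in replicate 2 made up 50% of all TPM, and the 10 highest genes made up 7.95 and 7.87%. Of 3838 matched long non-coding RNAs, 618 (16.1%) were expressed, and of 5307 processed pseudogenes, 429 (8.08%).

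The highest genes encode components of translation, the cytoskeleton, chromatin and glycolysis. HMGA1, an architectural chromatin protein, was the highest protein-coding gene, with 10270 TPM in replicate 1 and 9205 TPM in replicate 2. ACTB and ACTG1, the cytoplasmic actins, were at 8434 ± 28.5 and 5810.1 ± 197 TPM. EEF1A1, a translation elongation factor, was at 7439 ± 36.3 TPM and the chaperone HSP90AB1 at 7032 and 7094 TPM in the 2 libraries. GAPDH, an enzyme of glycolysis, was at 6405 ± 141 TPM, and YBX1, an RNA- and DNA-binding protein, at 4697 ± 164 TPM. RPS2, a protein of the small ribosomal subunit, was at 4895 and 3843 TPM, the widest relative spread among the 10. Of 85 cytosolic ribosomal protein genes, 83 were expressed, with a median of 509 TPM.

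The gene with the highest TPM was MTATP6P1, a nuclear pseudogene of the mitochondrial gene for ATP synthase subunit 6, with 47652 and 52065 counts and 19752 ± 951 TPM. All 37 genes encoded by mitochondria were listed at 0 in both libraries, and 33 of 394 pseudogenes of mitochondrial genes had counts. These pseudogenes took 2.02 and 2.18% of TPM. Levels of mitochondrial genes therefore cannot be read from this table, and whether reads of mitochondrial transcripts were assigned to these pseudogenes was not tested. RPS28P7, a processed pseudogene of a ribosomal protein gene, was also among the 10 highest, at 5219.5 ± 28.9 TPM.

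All 26 genes of the core pluripotency list were expressed, with a median of 210 TPM. The median was 7.87 TPM over all matched protein-coding genes and 0 over all 57133 genes. DNMT3B, a de novo DNA methyltransferase that is abundant in PSCs, was the highest, with 2834 and 2970 TPM. L1TD1, an RNA-binding protein derived from a LINE-1 element, was at 2209 ± 76.7 TPM. ESRG, a long non-coding RNA of human PSCs, was at 1707 ± 10.5 TPM and was the highest of the matched long non-coding RNAs by mean TPM. TDGF1, a co-receptor of NODAL, was at 811 ± 46.0 TPM, DPPA4 at 773 ± 2.75 TPM and PRDM14, a repressor of differentiation genes, at 259.7 ± 3.06 TPM. At the lower end were TERT, the catalytic subunit of telomerase (15.8 ± 1.31 TPM), and UTF1, a chromatin factor of undifferentiated cells (6.56 ± 4.05 TPM). UTF1 had 40 counts in replicate 1 and 16 in replicate 2.

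All 15 genes of the primed-state list were expressed, and 7 of the 14 genes of the naive-state list. Of the primed genes, CD24, a surface glycoprotein, was at 3093 ± 104 TPM, SFRP2, a secreted WNT antagonist, at 1117 ± 1.62 TPM and ZIC2 at 288 ± 10.3 TPM. OTX2, a transcription factor of the post-implantation epiblast, had 97.8 and 98.2 TPM. Of the naive genes, KLF4 was the highest, at 44.8 ± 2.11 TPM, while TFCP2L1 was at 3.40 ± 0.131 TPM and KLF17 had 0 and 3 counts. DNMT3L, a cofactor of the de novo methyltransferases, had 0 and 2 counts. The median was 98.0 TPM over the primed list and 1.47 TPM over the naive list.

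The 26 genes of the epithelial and surface list were all expressed as well. CLDN6, a tight-junction protein, was at 1535 ± 59.4 TPM, PODXL, which carries surface epitopes of PSCs, at 904 ± 11.5 TPM, ALPL, the tissue-nonspecific alkaline phosphatase, at 547 ± 0.196 TPM and EPCAM at 465 ± 5.98 TPM. CDH1, E-cadherin, was at 337 ± 20.9 TPM and CDH2, N-cadherin, at 56.3 ± 5.89 TPM. All 20 genes of the glycolysis list were expressed, with ENO1 at 1318 ± 5.83 TPM, TPI1 at 1301 ± 7.60 TPM and PGAM1 at 1168 ± 19.5 TPM. ALDOA and LDHB were the lowest of that list, at 13.0 ± 0.738 and 15.8 ± 0.0912 TPM, and both overlap other annotated genes.

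**Figure D2:**
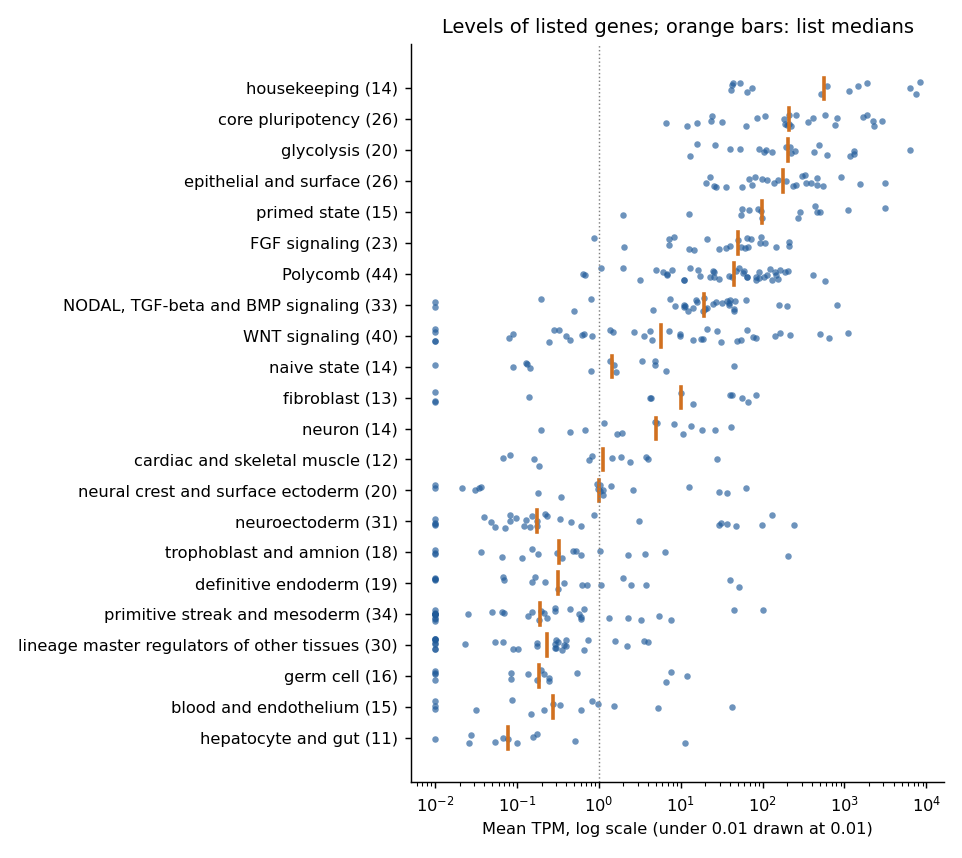
Mean TPM of each gene (x axis, log scale, with genes under 0.01 TPM drawn at 0.01) in 22 gene lists (y axis, number of genes in parentheses); each dot is a gene, orange bars are list medians and the dotted line is 1 TPM. Every dot of the core pluripotency, epithelial, primed and glycolysis lists lies above 1 TPM, and most dots of the germ-layer lists lie below it.

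Genes of the pathways that the culture medium feeds were widely expressed. Of 23 genes of FGF signaling, 22 were expressed, with FGFR1 at 147 ± 3.88 TPM and FGF2 itself at 54.3 ± 0.678 TPM. The transcriptional targets ETV4 (212 ± 2.75 TPM), SPRY4 (106 ± 2.80 TPM) and DUSP6 (96.3 ± 1.11 TPM) were also present. Of 33 genes of NODAL, TGF-beta and BMP signaling, 28 were expressed. The ligand NODAL was at 44.8 ± 1.55 TPM, its antagonists LEFTY1 and LEFTY2 at 27.0 ± 0.417 and 18.7 ± 1.72 TPM, and the receptor TGFBR1 at 44.3 ± 1.31 TPM. The BMP targets ID1 and ID3 were at 201 ± 109 and 158 ± 2.07 TPM, so that ID1 had by far the wider spread of the pair. INHBB had 0 counts in both libraries.

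Of 40 genes of WNT signaling, 26 were expressed. The secreted antagonists SFRP2 and SFRP1 (642 ± 57.3 TPM) and the repressor TCF7L1 (502 ± 4.45 TPM) stood at the top, followed by the receptor FZD7 (217 ± 3.43 TPM) and CTNNB1, the gene of beta-catenin (164 ± 1.08 TPM). AXIN2, a negative regulator and a common target of the pathway, had 21.7 and 19.8 TPM, while FZD9, a receptor, had 1.28 and 1.49 TPM from 11 and 13 counts. WNT3 was the highest of the ligands listed, at 9.69 ± 1.06 TPM. WNT3A, WNT6, WNT10B and the antagonist DKK4 had no counts.

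Of 44 Polycomb genes, 41 were expressed. Polycomb repressive complex 1 (PRC1) places ubiquitin on histone H2A, and its variants are set by the PCGF subunit. PCGF6, the subunit of PRC1.6, had 268 and 300 counts, or 25.5 ± 1.66 TPM. Of its partners, RNF2 was at 84.2 ± 2.39 TPM, RING1 at 64.2 and 65.8 TPM in the 2 libraries, RYBP at 64.3 ± 0.999 TPM and MAX at 39.1 ± 3.40 TPM. MGA, L3MBTL2 and E2F6 were at 25.9 ± 0.256, 24.7 ± 0.623 and 16.4 ± 0.0442 TPM. Among the PCGF genes, PCGF2 was the highest at 155 ± 1.05 TPM and BMI1 (PCGF4) the lowest at 3.18 ± 0.00153 TPM. The annotated gene COMMD3-BMI1, whose name joins BMI1 with another gene, had no counts. Whether reads of BMI1 were dropped for such an overlap was not tested, so its level is uncertain. PHC1, of canonical PRC1, was the highest gene of the list (573 ± 14.9 TPM), and the PRC2 genes JARID2, EZH2, SUZ12 and EED were at 416 ± 14.7, 114 ± 1.09, 47.0 ± 0.718 and 10.9 ± 0.592 TPM. CBX8 and YAF2 were under 1 TPM.

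The cell cycle list was expressed in 28 of its 32 genes, with PCNA at 627 ± 1.95 TPM and CCNB1 at 417 ± 3.88 TPM. The 4 genes that were not expressed all encode inhibitors of cyclin-dependent kinases. CDKN1A (p21) had 1 and 4 counts, CDKN2A had 6 and 0, CDKN2B had 0 and 2, and CDKN2C had 0 and 0. Other such inhibitors were expressed, with CDKN1B at 54.0 TPM (571 and 553 counts) and CDKN1C at 6.49 TPM (66 and 53 counts).

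Regulators of differentiated lineages were mostly under 1 TPM in at least 1 library. Of 142 genes in the lists for mesoderm, endoderm, neuroectoderm, neural crest and surface ectoderm, trophoblast and other tissues, 35 were expressed and 29 had no counts. A further 55 had counts in both libraries and were under 1 TPM in at least 1 of them, and 23 had counts in 1 library only.

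Of 34 genes of the primitive streak and mesoderm, 7 were expressed. They were led by KDR, the receptor of VEGF (101 ± 0.162 TPM), NODAL, and MIXL1, a homeobox factor of the primitive streak, with 9.41 and 6.06 TPM. TBXT, the T-box factor of the primitive streak, had 0 counts in replicate 1 and 12 in replicate 2, and no gene with counts in 1 library alone had more. EOMES, a T-box factor of the mesendoderm, had 3 and 5 counts, or 0.295 ± 0.100 TPM, with a 95% counting interval from 0.127 to 0.582 TPM for the libraries together. HAND1, HAND2, MESP1, NKX2-5 and TWIST1 were among the 10 genes with no counts. For NKX2-5, a factor of the heart, 0 counts allowed up to 0.193 TPM, and for HAND1 up to 0.233 TPM.

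Of 19 endoderm genes, 5 were expressed. FOXA3, a forkhead factor, had 57.8 and 45.3 TPM, and CER1, a secreted antagonist of NODAL and BMP, had 38.2 and 42.7 TPM. FOXA2, from the same family as FOXA3, had 7 and 5 counts, or 0.623 ± 0.156 TPM, and FOXA1 had 1 and 1. GATA4 had 5 and 0 counts and GATA6 2 and 0. SOX17, PDX1, HNF4A and NKX2-1 had no counts, which allowed up to 0.173 TPM for SOX17 and 0.162 TPM for PDX1.

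Of 31 neuroectoderm genes, 8 were expressed, and they included genes that PSCs and neural progenitors share. NES, an intermediate filament protein, had 221 and 259 TPM, MSI1, an RNA-binding protein, 132 ± 3.96 TPM, and OTX2 was next. The SOXB1 factor SOX3 was at 31.5 ± 0.00801 TPM, whereas SOX1, of the same group, had 1 count in replicate 1 and 0 in replicate 2. PAX6 had 2 and 9 counts over 20812 bases, the length given for it, or 0.0709 ± 0.0632 TPM, with a counting interval from 0.0356 to 0.128 TPM. NKX6-1 had 2 and 3 counts. EN1, EN2 and NKX2-2 had none. The neural genes SYT11 and NLGN3, which the study measures, were well above these, at 31.3 ± 0.453 and 42.6 ± 2.57 TPM.

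**Figure D3:**
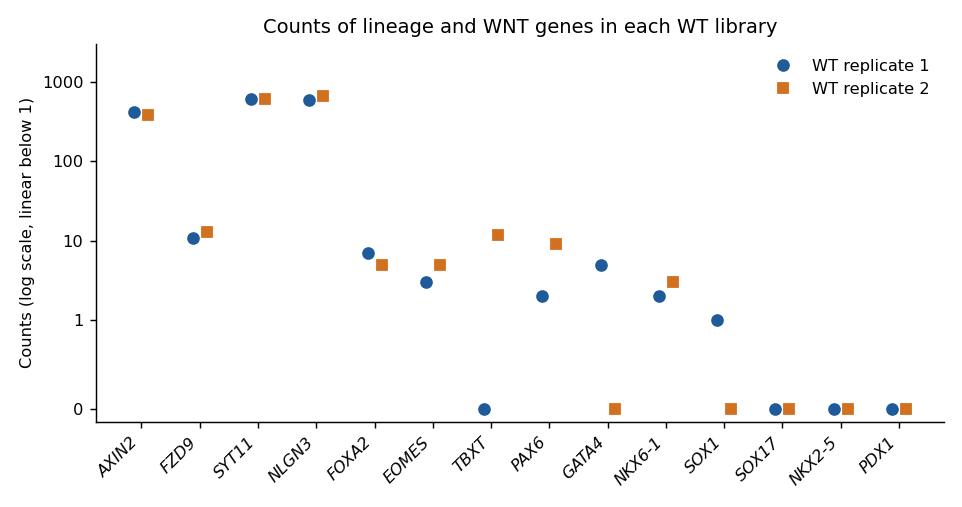
Counts (y axis, log scale, linear below 1) of 14 lineage and WNT genes that the study measures in WT replicate 1 (circles) and WT replicate 2 (squares). AXIN2, SYT11 and NLGN3 have from 388 to 666 counts, FZD9 has 11 and 13, TBXT has 0 and 12, and SOX17, NKX2-5 and PDX1 lie at 0 in both libraries.

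Of the 20 genes of neural crest and surface ectoderm, 7 were expressed, led by the transcription factors ETS1 (62.9 ± 1.76 TPM), SNAI1 (36.6 ± 0.263 TPM) and GRHL2 (29.1 ± 0.617 TPM), and KRT14 and TFAP2B had no counts. Of 30 master regulators of other tissues 4 were expressed, among them FOXP3, a factor of regulatory T cells (3.56 ± 0.814 TPM), while the muscle regulators MYOD1, MYF5 and MYOG had no counts. FOXP3 overlaps CCDC22 and other annotated genes, and whether its counts came from them was not tested. Of the 12 genes of DNA methylation 11 were expressed, with the maintenance enzyme DNMT1 at 210.1 ± 0.0615 TPM and the 5-methylcytosine oxidase TET1 at 80.8 ± 4.28 TPM. In these lists and those above, genes other than the 5 highest, the silent genes and those that the study measures were chosen after their values were seen.

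Gene families gave the same picture with clear exceptions. None of 39 HOX genes was expressed, and 31 had no counts. HOXB1, the highest, had 8 and 3 counts. None of the 6 GATA factors was expressed in both libraries, with GATA3 the highest at 15 and 11 counts (1.02 ± 0.237 TPM). Of 9 PAX genes, PAX9 alone was expressed (2.17 ± 0.000211 TPM), and of 17 T-box genes 3 were. By contrast 12 of 19 SOX genes were expressed, with SOX4 (194 TPM), SOX12 (142 TPM) and SOX13 (102 TPM) next to SOX2. Of 51 forkhead genes 25 were expressed, led by FOXM1, a factor of dividing cells (271 TPM), and FOXH1, a partner of SMAD2 (198 TPM). Of 505 zinc-finger genes with a ZNF symbol, 436 were expressed, with a median of 11.3 TPM.

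Markers of cells that could be present beside PSCs were given as whole lists. Of the fibroblast list, 9 of 13 genes were expressed and its summed level was 311.6 and 330.9 TPM. DCN, LUM and FAP had no counts, while FN1 (83.0 ± 4.28 TPM), TAGLN (66.3 ± 2.74 TPM) and COL1A1 (56.8 ± 0.0135 TPM), of the same list, were present. Of the neuron list 10 of 14 genes were expressed (summed level 137.9 and 130.7 TPM), with NEFM highest at 40.8 ± 0.194 TPM. Of the muscle list 5 of 12 were expressed (44.1 and 42.5 TPM), with ACTC1 at 27.8 ± 0.196 TPM and MYH7 at 3 and 0 counts. Of the blood and endothelium list 3 of 15 were expressed (55.4 and 49.7 TPM), with TEK at 42.2 ± 1.80 TPM, PTPRC (CD45) at 3 and 3 counts and HBB at 0. Of the hepatocyte and gut list VIL1 alone of 11 was expressed (11.5 ± 0.992 TPM), and ALB had 0 and 4 counts. Of the trophoblast and amnion list 4 of 18 were expressed, with TEAD4 at 204 ± 4.52 TPM, while CGA had 0 and 2 counts and ELF5 had none. Of the germ cell list 3 of 16 were expressed, with TFAP2C at 12.1 ± 0.303 TPM, DAZL at 7.61 ± 0.783 TPM and DPPA3 at 6.63 ± 0.627 TPM. The part of other cell types in these levels was not tested, and in bulk RNA a few cells with much of a transcript and many cells with little cannot be told apart.

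A total of 29340 genes (51.4%) had no counts, among them 2636 protein-coding genes (13.7%). The 17 type I interferon genes, 340 of 399 olfactory receptor genes, 88 of 94 keratin-associated protein genes, 37 of 40 beta-defensin genes and 42 of 55 keratin genes were among them. The keratins of simple epithelia were the exception in their family, with KRT18, KRT8 and KRT19 at 327, 307 and 159 TPM. A further 5257 genes had counts in 1 library only, of which 3407 (64.8%) had 1 count.

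An absence of counts also touched genes that dividing cells use. EEF1G, a subunit of the translation elongation factor complex, and TOMM6, a subunit of the mitochondrial import pore, had 0 counts in both libraries. RPS10, a ribosomal protein gene, was at 4.39 and 3.40 TPM, whereas the median of its family was 509 TPM. GNG10 and GDF1 had no counts, and they lie on the same strand within DNAJC25-GNG10 and CERS1. Of the protein-coding genes with no counts, 5.14% lay within another protein-coding gene on the same strand, compared with 1.51% of expressed genes. Whether reads that fit more than 1 gene were dropped in the counting was not tested, so 0 counts of such a gene does not show that it was silent. These genes were chosen after their values were seen.

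Promoter composition moved with the level across the 19205 protein-coding genes with a window of 300 bases around the annotated start (GENCODE, GRCh38). A window was called CpG-dense at a GC content of at least 55% and an observed over expected CpG ratio of at least 0.65. Of all windows, 48.6% were CpG-dense. The share was 10.1% among genes with no counts, 28.8% among genes of up to 1 TPM, 51.5% from 1 to 10 TPM, 65.2% from 10 to 100 TPM and 68.1% above 100 TPM. The median CpG ratio went from 0.231 in genes with no counts to 0.833 in genes above 100 TPM. Genes are not independent replicates, and these shares are a description with no test. The genes with no counts include some, such as EEF1G, for which 0 counts does not show silence.

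Families of silent genes differed in this respect. The olfactory receptors, keratin-associated proteins and type I interferons with no counts had median CpG ratios of 0.120, 0.166 and 0.119, as in the window of IFNB1 shown above. By contrast, 14 of the 29 lineage regulators with no counts (48.3%) had CpG-dense windows, as did 10 of the 31 HOX genes (32.3%) and 2 of the 9 forkhead genes (22.2%) with no counts. Over the lineage lists the share was 42.1% among all genes not expressed and 62.9% among expressed genes. The 263 protein-coding genes with no counts and a CpG-dense window include EEF1G, TOMM6 and GNG10, for which 0 counts does not show silence. Of these 263 genes, 24 were in the lineage lists or the HOX clusters. TBX20, CDX1, FOXF1, MESP1, TWIST1, SOX17, PDX1 and NKX2-1 were among these regulators. The share among lineage regulators with no counts was close to the 48.6% of all genes and above the 10.1% of all genes with no counts. No test was run on this difference, because the lists were chosen with results of these data known.

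**Figure D4:**
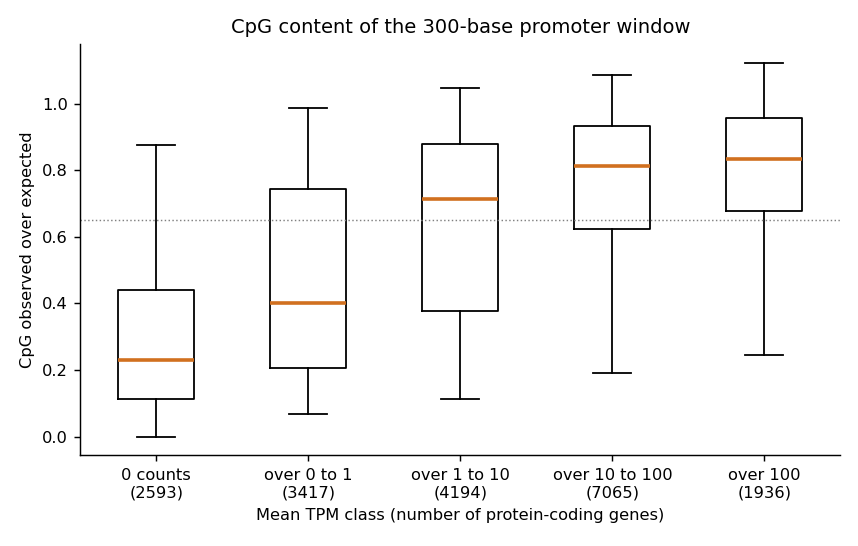
Observed over expected CpG ratio (y axis) of the 300-base promoter window of protein-coding genes by mean TPM (x axis, number of genes in parentheses); boxes span the quartiles, orange lines are medians, whiskers reach the 5th and 95th percentiles and the dotted line is 0.65. The medians run from 0.231 in genes with no counts to 0.833 above 100 TPM.

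The libraries were close in level. The median fold between them was 1.18 for genes from 1 to 10 TPM, 1.06 from 10 to 100 TPM and 1.04 above 100 TPM, so that levels of abundant genes were the more precise. Across the expressed genes Pearson's r of log2 TPM was 0.988, as a description over genes that share both libraries. The chi-square per degree of freedom was 2.40 over the 16181 genes with 20 counts or more, where counting error alone gives about 1, so the counts of the libraries differed by more than sampling noise, and the libraries were not treated as a repeated deposit. This does not show whether they came from separate cultures.

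Each gene with at least 10 counts was then tested with a two-sided exact binomial test against the library totals, which compares these 2 libraries and no condition. Its p-values cover counting error only, and since the libraries differed by more than that, they are too small as a measure of the spread between preparations. Of 18175 genes, 74 (0.407%) were called, which required a fold of 1.5 or more together with a Benjamini-Hochberg adjusted p under 0.05, of which 13 (0.0715%) were higher in replicate 2 and 61 (0.336%) in replicate 1. Of the listed genes tested, 3 (0.817%) were called. ID1, an inhibitor of basic helix-loop-helix factors, had 1256 and 569 counts and was 2.27-fold higher in replicate 1 (95% counting interval 2.06 to 2.51, exact binomial adjusted p = 1.93e-60). UTF1 was 2.58-fold higher in replicate 1 (interval 1.41 to 4.93, exact binomial adjusted p = 0.0423). TBXT was higher in replicate 2, with 0 and 12 counts (exact binomial adjusted p = 0.0233). Its ratio was 3.88 when 3 counts were taken for the 0 of replicate 1. This takes the 12 counts as exact, so it is not a lower limit of the difference. POU5F1, SOX2, NANOG and LIN28A were not called. For NANOG and LIN28A this was due to the fold limit alone. NANOG was 1.19-fold higher in replicate 2 (exact binomial adjusted p = 1.57e-06) and LIN28A 1.08-fold (exact binomial adjusted p = 9.17e-17).

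Among called genes at a mean of 1 TPM or more, the largest differences toward replicate 2 were in MEMO1P1 (15 and 82 counts), MAGEA2B (12 and 62), SMG1P2 (33 and 113), CSAG2 (19 and 49) and ARMCX5-GPRASP2 (34 and 76). MAGEA2B and CSAG2 are cancer-testis genes on the X chromosome with near-identical copies, and MEMO1P1 and SMG1P2 are pseudogenes, so these counts are uncertain. Toward replicate 1 the largest were in C17orf49 (21 and 1 counts), PLAC9 (18 and 2), AC018904.1 (19 and 3), UQCRFS1P1 (47 and 9) and AL135905.2 (59 and 12). The ratio of C17orf49 was 21.6, with a counting interval from 3.48 to 894. Abundant genes also differed: FTH1, the heavy chain of ferritin, had 3655 and 2290 counts, and MTCO1P12, a pseudogene of a mitochondrial gene, had 647 and 1221. These last genes were chosen after their values were seen.

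**Figure D5:**
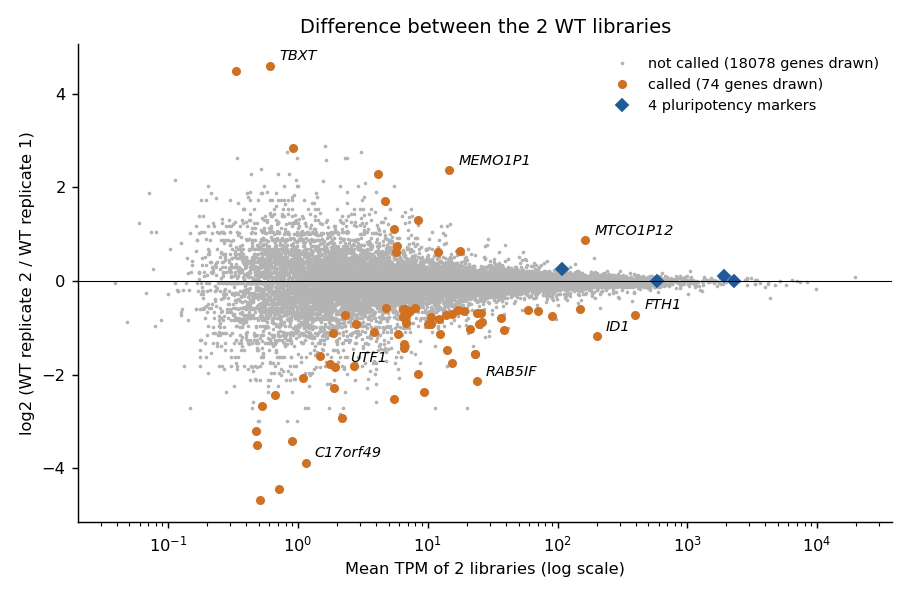
Log2 ratio of WT replicate 2 to WT replicate 1 (y axis) against mean TPM (x axis, log scale) for nearly all tested genes, with a small constant added to counts so that 0 can be drawn; orange dots are the 74 called genes and blue diamonds the 4 pluripotency markers. The spread narrows as TPM rises, the 4 markers lie near 0, and ID1 and TBXT lie on opposite sides of the line.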

How the data were processed

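RNA-seq of 2 WT PGP1 libraries was used. The authors trimmed adapters with Trim Galore (0.6.2), aligned reads to GRCh38 with HISAT2 (2.1.0), counted reads per gene with featureCounts and deposited raw counts with gene lengths. The annotation release, strand setting and handling of multi-mapped or overlapping reads are not given in the sources used here, so genes with copies or overlaps are uncertain. The PCGF6-KO counts in the same table were not analysed here. The members and gene lists were chosen with earlier results of these data known.

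TPM was computed from counts and the deposited lengths. Biotypes and positions came from GENCODE 44 (GRCh38) for 36219 genes matched by symbol and 873 by a RefSeq synonym, and 20041 were not matched. The binomial test (scipy 1.17.1) was tested on simulated data, and TMM came from edgeR (4.0.16). Named genes are the 4 markers, the 10 highest genes of at least 200 bases, up to 5 of the highest and 5 of the silent genes of each list, genes that the study measures, and the 5 largest differences between libraries in each direction. Other settings were 0.5 and 5 TPM, CPM in place of TPM, other TPM totals, other count filters, TMM and leaving out either library.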

Additional observations from a re-analysis of the deposited data

How the results depend on the processing

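The results compared here are counts, levels and shares, which have no direction, so a reversal was not tested. Of 58 alternative values, 47 were classed as the same as the main value and 11 as moved. Part of the 47 could not have come out otherwise. A marker was classed by the SD of the 2 libraries, and leaving out 1 library always stays within it. The genes encoded by mitochondria were all at 0, so leaving them out could not change any TPM. These values are no sign of stability. No paired analysis was possible because 1 group was described and the replicate numbers pair it with no other group here. The count of expressed genes was 18586 at 0.5 TPM, 11816 at 5 TPM and 14564 at 1 CPM, and 17682 and 17894 with 1 library. The lineage lists held 18 expressed genes at 5 TPM in place of 35. Over protein-coding genes alone, 2636 genes had no counts. Calls between the libraries numbered 541 at an adjusted p under 0.05 without the fold limit, and 69 under TMM scaling, all of which were among the 74. With other TPM totals POU5F1 was at 2312 TPM without genes under 200 bases, 2347 TPM without pseudogenes of mitochondrial genes and 2551 TPM over protein-coding genes. SOX2 was at 583, 591 and 643 TPM in the same order, and LIN28A at 2127 TPM over protein-coding genes. At a GC content of 50% and a CpG ratio of 0.6, 14.0% of genes with no counts and 69.6% of expressed genes were CpG-dense. The last 3 kinds of setting (totals without those pseudogenes, totals over protein-coding genes, the lower CpG thresholds) were chosen after seeing the data. The level that 0 counts allow depends on length, with 0.0955 TPM at 4239 bases and 1.90 TPM for the beta-defensin gene DEFB131A, so short genes with no counts may lie above 1 TPM.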

Other observations

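Imprinted genes, which are expressed from the copy of 1 parent, were examined as a list of 25 genes chosen after the data were seen. MEST (222 ± 16.7 TPM), PEG10 (200 ± 2.09 TPM), NNAT (180 ± 3.32 TPM) and NDN (102 ± 4.05 TPM) were abundant, and SNRPN was at 18.3 ± 0.573 TPM. At the imprinted region around PEG3, the genes PEG3, USP29 and ZIM2 all had 0 counts in both libraries. At the DLK1 and MEG3 region, DLK1 had 14 and 12 counts, MEG3 had 0 and 1, and MEG8 and RTL1 had none. H19 had 2 and 3 counts and IGF2 had 11 and 20. The counts are not split by allele, and no cause was tested.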
